A study of Mus musculus with 8 samples.

Results

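The genes described here are those of the NF-kB transcription factor family, its inhibitors and the NF-kB coregulator Bcl3, measured in mouse embryonic fibroblasts with and without the transcription factor Stat3. The rule took every probe set whose only gene symbol in the platform annotation is Bcl3, Nfkb1, Nfkb2, Rel, Rela, Relb, Nfkbia, Nfkbib, Nfkbie or Nfkbiz. It found 13 of 12422 probe sets, for 9 of these 10 genes. No probe set has Nfkb1 as its single symbol, so Nfkb1, which encodes the p105 precursor of p50, is not analysed here. A probe set was tested if 2 or more arrays gave it a log2 value of 5 or higher, and 11 of the 13, for 8 genes, met this. The best probe set of each of these 8 genes reached 5 on 7 or 8 arrays. The only Rel probe set, for the c-Rel subunit, read 3.00 to 3.57 and reached 5 on none.

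RNA from these cells was hybridised to 8 Affymetrix arrays in 4 groups of 2. The free-text description mentions OSM treatment for every sample, the untreated ones included, so treatment was taken from the sample titles, and every OSM difference rests on them. The titles give the groups as untreated STAT3+/+ cells, STAT3+/+ cells given oncostatin M (OSM), untreated STAT3-/- cells, and STAT3-/- cells given OSM. OSM belongs to the interleukin-6 cytokines and signals through gp130 receptors, and it was given at 20 ng/ml for 30 minutes. All cells were spontaneously immortalised fibroblasts kept in medium with 10% heat-inactivated serum and 2 mM glutamine. The sample titles carry the number 2 or 3 in each group, called replicate 2 and replicate 3 here. The labels do not say whether the number marks a line, a culture or an array run, and they name 1 immortalised source per genotype. Loss of Stat3 and any other difference between the sources cannot be told apart. The p-values reflect array-to-array spread alone, and that spread may be technical.

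NF-kB is a family of dimers built from p50, p52, RelA, RelB and c-Rel, which are held in the cytoplasm by inhibitors of the IkB type until the IkB kinases mark the inhibitors for destruction. Nfkbia, Nfkbib and Nfkbie encode the classical cytoplasmic inhibitors IkB-alpha, IkB-beta and IkB-epsilon. Bcl3 and Nfkbiz encode relatives of these inhibitors that work in the nucleus, where they bind p50 or p52 dimers on DNA and can raise or lower transcription. In fibroblasts the pathway is known for driving chemokine, adhesion and survival genes, and several family members are themselves NF-kB targets, which forms feedback loops. Bcl3 is also known as a gene that cytokines of the interleukin-6 family can induce.

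Matches to the 10-base kappaB consensus, the sequence that NF-kB dimers bind, are shown because they mark which family genes carry this motif beside their own start. RefSeq promoter windows on GRCm38.p6, from 250 bases before to 50 bases after the start, were on hand for 7 of the 10 genes, with 9 windows in all. The motif, searched on both strands, was found in 7 of the 9 windows, for 5 genes, and in 8.46% of all 32851 windows. The 3 windows of Nfkb2 each held it, and the second and the third overlap. Each line gives 30 bases in the gene's 5′ to 3′ direction with a match of 10 bases in capitals. The Nfkbia match is in the reverse orientation.
Bcl3: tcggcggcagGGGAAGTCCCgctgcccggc
Nfkb2: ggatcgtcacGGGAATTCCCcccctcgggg
Rel: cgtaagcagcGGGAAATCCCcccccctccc
Nfkbia: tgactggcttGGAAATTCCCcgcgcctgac
Nfkbie: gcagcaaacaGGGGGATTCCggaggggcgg
The Bcl3 stretch lies at chr7:19822734-19822763 on the minus strand and its match begins at base 3 from the start that its window uses. That start lies inside the annotated gene, which extends to 19822824. The Nfkb2 stretch is at chr19:46304688-46304717 on the plus strand, the Rel stretch at chr11:23771042-23771071 on the minus strand, the Nfkbia stretch at chr12:55492657-55492686 on the minus strand and the Nfkbie stretch at chr17:45555584-45555613 on the plus strand. With the base before the start counted as -1, these 4 matches begin at -39, -92, -29 and -106. The STAT motif TTCNNNGAA was found in 1 of the 9 windows, the first of Nfkb2, and in 8.30% of all windows. The AP-1 motif TGANTCA was in 2 of the 9, for Nfkb2 and Nfkbie, against 7.81%. These matches describe letters in the windows and are not binding data.

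Levels are given as log2 GCRMA values, and each probe set is compared only with itself. Of 16 fibroblast markers 13 were at 5 or more on all arrays, among them Col1a1 at 14.98 to 15.87 and Col3a1 at 13.00 to 15.23, while the probe sets of Vim and Thy1 stayed under 5. Of 13 leukocyte markers 11 were under 5 on every array, Ptprc at 3.24 to 4.34, but Cd14 read 9.34 to 11.62 and Csf1r 8.80 to 10.20. The array medians of this list were 2.62 to 3.36. Of 8 epithelial markers 6 were under 5 on every array, and of 8 endothelial markers 4 were, with array medians of 2.68 to 3.14 and 3.86 to 5.11. The best Stat3 probe set read 10.11 to 11.94 in STAT3+/+ and 7.81 to 9.17 in STAT3-/- cells. The other Stat3 probe set read 9.80 to 12.57 in STAT3+/+ cells, 2.76 to 2.94 on 3 of the STAT3-/- arrays and 7.30 in STAT3-/- OSM replicate 3. Whether either lies in the deleted part of Stat3 is not stated, so they check the labels only in part. Arrays of one number and different groups correlated at 0.932 to 0.977 and arrays of one group at 0.869 to 0.926 across tested probe sets. The 3′ control of 18S RNA lay between 11.02 and 11.67 on the replicate 2 arrays and between 14.75 and 15.13 on those of replicate 3. STAT3-/- OSM replicate 2 stood nearer to untreated STAT3-/- replicate 3 (0.930) than any array stood to its own group partner. Differences of the members are therefore mostly given within each number beside the pooled value.

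Bcl3 had its highest level in STAT3+/+ cells given OSM. In STAT3+/+ cells replicates 2 and 3 read 6.82 and 8.88 untreated, then 11.48 and 11.30 after OSM. In STAT3-/- cells they read 7.22 and 4.83 untreated, then 6.55 and 7.77 after OSM. Both STAT3+/+ OSM arrays lay above the other 6 arrays, and the other 3 groups overlapped one another. The value of 4.83 is under 5, the level set for testing. The gene lies on GRCm38.p6 chromosome 7 from 19808462 to 19822824.

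**Figure D1:**
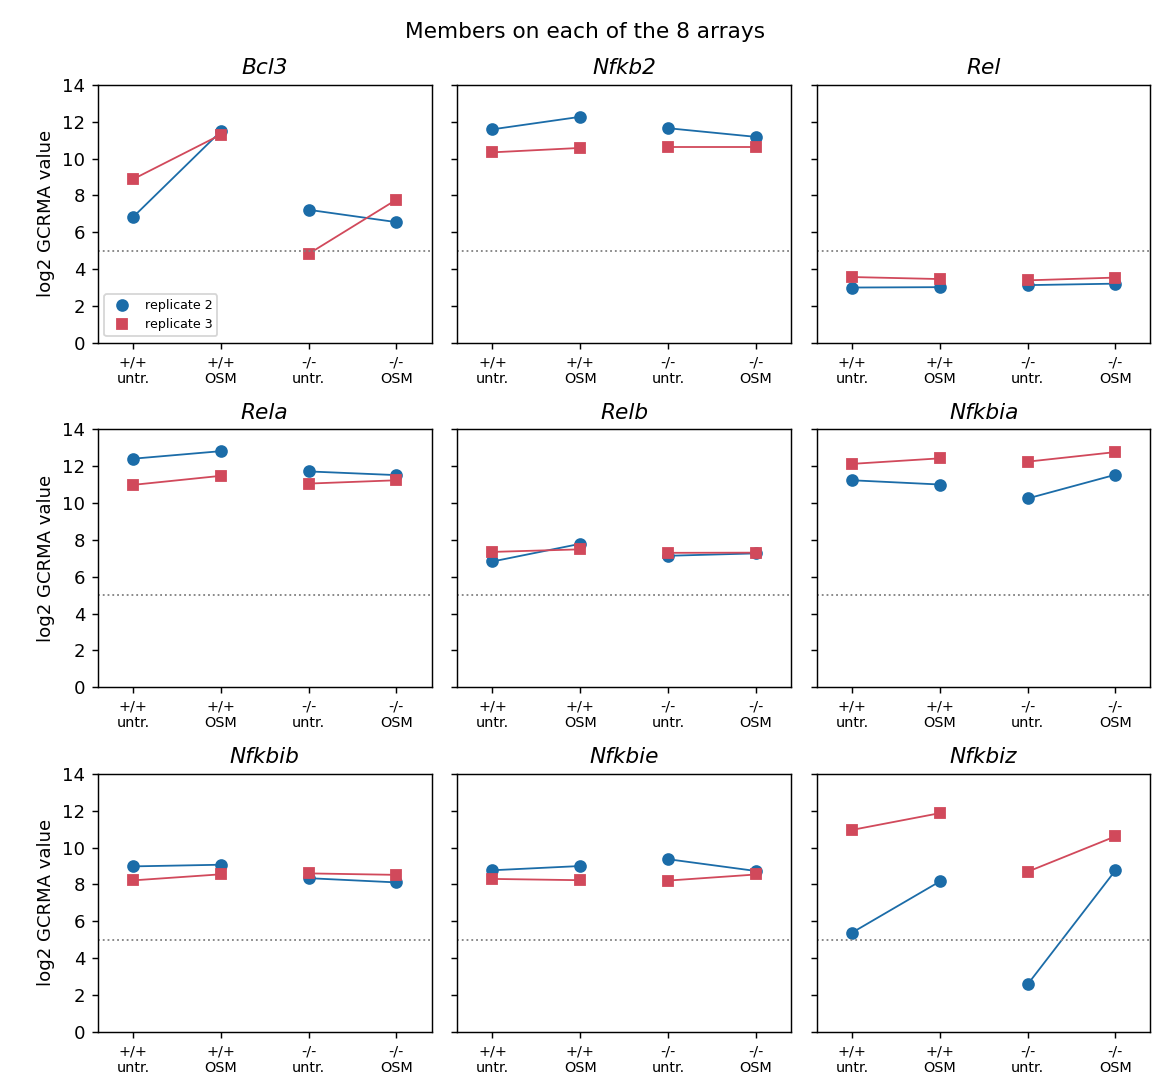
Log2 GCRMA value (vertical axis) of the best probe set of each of the 9 genes in the 4 groups (horizontal axis), with replicate 2 as circles, replicate 3 as squares, a line joining the untreated and OSM array of one number and genotype, and the level of 5 used for testing dotted. Bcl3 sits at 11.30 to 11.48 in STAT3+/+ cells with OSM and at 4.83 to 8.88 elsewhere, Nfkbiz differs most between the numbers, and Rel stays under 5.

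The OSM response of Bcl3 in STAT3+/+ cells was a log2 difference of 3.54 ± 1.01 (SE), an 11.6-fold higher value. It was 4.66 within replicate 2 and 2.42 within replicate 3, so both pairs were higher with OSM. The limma p was 0.0124 before adjustment, rank 48 of 6756 probe sets, and the adjusted p over all of them was 1 (0.507 with replicate number as a block). The call was thus not made for Bcl3, nor for any probe set of the array in this comparison (0% called). An unadjusted limma p under 0.05 was found for 126 probe sets (1.87%), a smaller share than that threshold itself. In STAT3-/- cells the Bcl3 difference with OSM was 1.14 ± 1.01 (SE, limma adjusted p = 1). It was -0.67 within replicate 2 and 2.95 within replicate 3, opposite in direction. The second of these starts from the 4.83 on untreated replicate 3, and without that array the pooled difference was -0.06.

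The Bcl3 response in STAT3-/- minus that in STAT3+/+ cells was -2.40 ± 1.43 (SE, limma adjusted p = 1). This difference of responses was -5.33 within replicate 2 and 0.53 within replicate 3, so the numbers disagreed on whether STAT3-/- cells responded less. With OSM present, Bcl3 was lower in STAT3-/- than in STAT3+/+ cells in both numbers, by -4.93 in replicate 2 and -3.53 in replicate 3. The pooled difference was -4.23 ± 1.01 (SE), with a limma p of 0.00552 and an adjusted p of 0.81 (0.234 with the block). The lowest STAT3+/+ and the highest STAT3-/- array with OSM were 3.53 apart. Without STAT3-/- OSM replicate 2 the pooled difference was -3.62. Before OSM the genotype difference was -1.83 ± 1.01 (SE, limma adjusted p = 1), from 0.40 in replicate 2 and -4.06 in replicate 3, so there it rested on replicate 3.

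Nfkbiz encodes the other nuclear member, IkB-zeta, which is known as a rapidly induced gene in many cell types. On its best probe set, replicates 2 and 3 of STAT3+/+ cells read 5.38 and 10.96 untreated and 8.16 and 11.87 after OSM. Those of STAT3-/- cells read 2.57 and 8.69 untreated and 8.76 and 10.61 after OSM. Replicate 3 was higher than replicate 2 in all 4 groups, by 1.85 to 6.12. Within each number, both genotypes were higher with OSM. The difference was 2.77 and 0.91 in replicates 2 and 3 of STAT3+/+ cells, and 6.20 and 1.92 in STAT3-/- cells. The 6.20 starts from 2.57, well under 5, and with values under 5 set to 5 the pooled STAT3-/- difference of 4.06 ± 2.66 (SE) became 2.84.

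No Nfkbiz comparison passed. For OSM in STAT3-/- cells the limma adjusted p was 1, and 0.379 with replicate number as a block, where the standard error was 1.02. In STAT3+/+ cells the pooled difference was 1.84 ± 2.66 (SE, limma adjusted p = 1). The second Nfkbiz probe set, dim at 4.93 to 5.71, differed by -0.12 ± 0.47 (SE) with OSM in STAT3+/+ and 0.21 ± 0.47 in STAT3-/- cells, so the probe sets disagree on the response in STAT3+/+ cells and on its size in both genotypes. Before OSM, Nfkbiz was lower in STAT3-/- cells in both numbers, at -2.82 and -2.27, with a pooled difference of -2.54 ± 2.66 (SE, limma adjusted p = 1, and 0.515 with the block). The -2.82 rests on the same reading of 2.57, and with values under 5 set to 5 the pooled difference became -1.33. With OSM the genotype difference was 0.61 in replicate 2 and -1.26 in replicate 3. The response in STAT3-/- minus that in STAT3+/+ cells was 3.43 and 1.01 within the numbers, and 2.22 ± 3.76 (SE, limma adjusted p = 1) pooled.

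**Figure D2:**
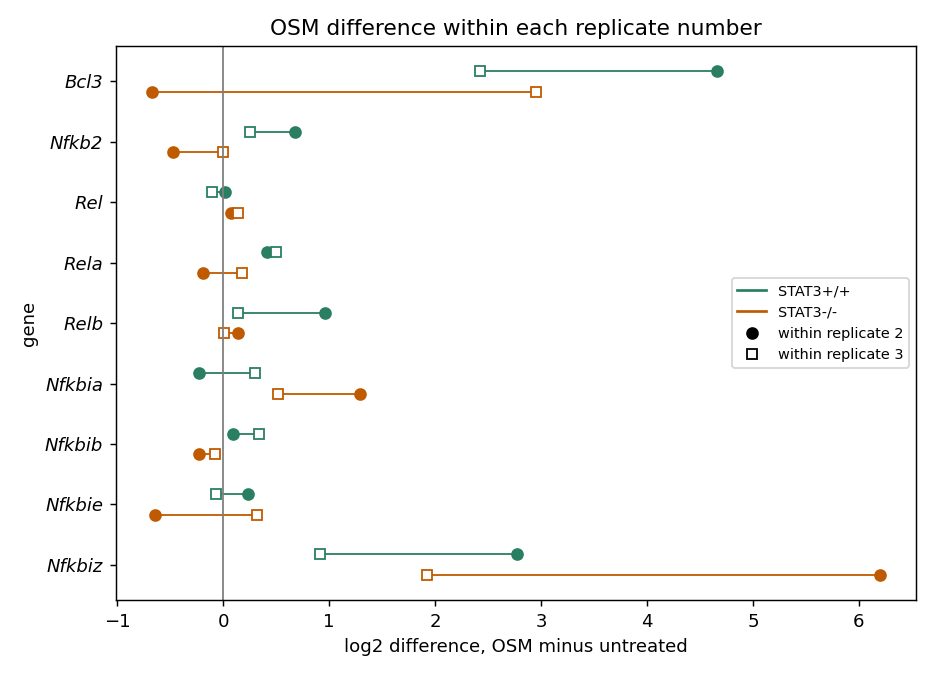
Log2 difference between the OSM and the untreated array (horizontal axis) for the best probe set of each gene (vertical axis), in STAT3+/+ (green) and STAT3-/- (orange) cells, within replicate 2 (filled circles) and replicate 3 (open squares). Bcl3 lies at 2.42 and 4.66 in STAT3+/+ cells but at -0.67 and 2.95 in STAT3-/- cells, Nfkbiz is above 0 in all 4 pairs, and the other genes lie between -0.64 and 1.29.

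Among the classical inhibitors, Nfkbia, whose product IkB-alpha ends NF-kB responses as a rapid feedback target, has a pair of probe sets of nearly equal mean (11.70 and 11.68). On the first, replicates 2 and 3 of STAT3+/+ cells read 11.24 and 12.13 untreated and 11.01 and 12.43 after OSM, and those of STAT3-/- cells 10.25 and 12.25 untreated and 11.54 and 12.77 after OSM. On the other the same arrays read 11.12 and 11.50, 11.72 and 12.32, 11.15 and 11.96, and 11.33 and 12.38. On both, replicate 3 was the higher in every group.

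The larger OSM difference lay in different genotypes on the 2 Nfkbia probe sets. Their differences of responses, 0.87 ± 1.21 and -0.41 ± 0.69 (SE), were smaller than these standard errors (limma adjusted p 0.913 each with the block). The first differed by 0.03 ± 0.85 (SE) in STAT3+/+ and 0.91 ± 0.85 in STAT3-/- cells, with 1.29 and 0.52 within the numbers of the latter. The other differed by 0.71 ± 0.49 (SE) in STAT3+/+ cells, with 0.60 and 0.82 within the numbers. In STAT3-/- cells it differed by 0.30 ± 0.49, with 0.18 and 0.42 within them. All 4 had a limma adjusted p of 1. With replicate number as a block their adjusted p-values were 0.996, 0.404, 0.546 and 0.632. The place of each probe set on the transcript was not examined.

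Nfkbib read 8.11 to 9.07 and Nfkbie 8.21 to 9.37 over all arrays. Nfkbib differed with OSM by 0.22 ± 0.41 (SE) in STAT3+/+ cells and -0.15 ± 0.41 in STAT3-/- cells. Nfkbie differed by 0.08 ± 0.51 (SE) and -0.16 ± 0.51. Neither passed (limma adjusted p = 1 each), and the differences within the numbers stayed between -0.64 and 0.34. Transcripts of these inhibitors thus differed by less than their standard errors.

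Among the DNA-binding subunits, Relb, which pairs with p52 in the non-canonical branch of the pathway, had STAT3+/+ values of 6.83 and 7.35 untreated (replicates 2 and 3) and 7.79 and 7.49 after OSM. Its STAT3-/- values were 7.14 and 7.30 untreated and 7.27 and 7.31 after OSM. The STAT3+/+ groups did not overlap, and the STAT3-/- values lay between 7.14 and 7.31. The OSM difference was 0.55 ± 0.35 (SE) in STAT3+/+ cells, 0.96 and 0.14 within the numbers, and 0.07 ± 0.35 in STAT3-/- cells (limma adjusted p = 1 each). The difference of responses was -0.83 and -0.12 within the numbers and -0.48 ± 0.49 (SE, limma adjusted p = 1) pooled. The dimmer Relb probe set differed by 0.65 ± 0.52 (SE) in STAT3+/+ and 0.37 ± 0.52 in STAT3-/- cells, where its numbers disagreed in sign at 0.92 and -0.19.

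Nfkb2, the gene of the p100 precursor that yields p52, had STAT3+/+ values of 11.59 and 10.34 untreated (replicates 2 and 3) and 12.27 and 10.58 after OSM. Its STAT3-/- values were 11.65 and 10.62 untreated and 11.18 and 10.62 after OSM. Replicate 2 was the higher in every group, by 0.55 to 1.69. Within the numbers the OSM difference was 0.68 and 0.25 in STAT3+/+ and -0.47 and -0.00011 in STAT3-/- cells, and the pooled values were 0.46 ± 0.73 and -0.23 ± 0.73 (SE, limma adjusted p = 1 each).

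Rela encodes RelA, the main transactivating subunit of the canonical pathway. Its STAT3+/+ values were 12.41 and 10.99 untreated (replicates 2 and 3) and 12.82 and 11.48 after OSM, and its STAT3-/- values 11.72 and 11.06 untreated and 11.52 and 11.24 after OSM. Replicate 2 was again the higher in each group. The OSM difference in STAT3+/+ cells was 0.41 and 0.50 within the numbers, or 0.45 ± 0.64 (SE) pooled, and in STAT3-/- cells it was -0.19 and 0.18, or -0.01 ± 0.64 (limma adjusted p = 1 each). Rel, c-Rel, and the other Rela probe set, at 1.96 to 2.58, stayed under 5 on every array and were not tested.

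Counted over the 8 genes with a tested probe set, 0 passed in any of the 5 comparisons, with or without replicate number as a block. Over all tested probe sets limma called 0% before OSM between genotypes, 0% for OSM in STAT3+/+, 0% for OSM in STAT3-/-, 0% for the difference of responses and 0.0148% for the genotypes with OSM. With the block these shares were 0%, 0.0148%, 0.0296%, 0% and 0.104%. Without the block an unadjusted limma p under 0.05 was reached by Bcl3 alone, for OSM in STAT3+/+ cells and for the genotypes with OSM. There 1.87% and 3.60% of all probe sets reached it. In the other comparisons (genotypes before OSM, OSM in STAT3-/- cells, difference of responses) 0 members did, beside 2.24%, 2.04% and 0.429% of all. With the block Bcl3 reached it in the same comparisons. On their best probe sets Nfkbiz then reached it between genotypes before OSM, and Nfkbiz and Nfkbia for OSM in STAT3-/- cells. The other Nfkbia probe set did so for OSM in STAT3+/+ cells. For the difference of responses 0 members did. Shares of all probe sets were not counted for the block, but the ranks by its p give a lower bound. Before OSM, Nfkbiz (limma p 0.0498 with the block) held rank 649 of 6756, so at least 649 probe sets reached 0.05. For OSM, Nfkbia held rank 371 in STAT3-/- and its other probe set rank 241 in STAT3+/+ cells. Without the block 151, 138 and 126 probe sets reached 0.05 in these 3 comparisons, so reaching it was more common with the block. For the genotypes with OSM, Bcl3 held rank 203.

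The counts that follow, here and between genotypes, take only the best probe set of each gene. With OSM in STAT3+/+ cells 8 of 8 genes had a pooled difference above 0, as 43.8% of all tested probe sets did. The median was 0.46, beside -0.04 over all. The differences of Nfkbia (0.03 ± 0.85) and Nfkbie (0.08 ± 0.51, SE) were far smaller than their standard errors and opposite in sign between the numbers. On leaving out 1 array only Bcl3 and Relb kept their sign throughout. In 6 of the 8, Bcl3, Nfkb2, Rela, Relb, Nfkbib and Nfkbiz, both numbers were higher with OSM, as in 26.4% of all tested probe sets, and in 2, Bcl3 and Relb, the groups did not overlap, as in 8.29%. No member was lower in both numbers (40.2% of all) or lower without overlap (9.31%) on its best probe set. The dim second Nfkbiz probe set was lower in both, at -0.13 and -0.10, and the other Nfkbia probe set was higher without overlap, at 0.60 and 0.82. In STAT3-/- cells 4 of 8 were above 0, with a median of 0.03, beside 52.2% and a median of 0.02. Relb, Nfkbia and Nfkbiz were higher in both numbers there (33.9% of all) and Nfkb2 and Nfkbib lower in both (31.4%). Nfkbiz was higher without overlap, as 14.4% of all were, by a gap of 0.07, and no member was lower without overlap (12.3%). The OSM response in STAT3-/- minus that in STAT3+/+ cells was below 0 in both numbers for Nfkb2, Rela, Relb and Nfkbib (26.6% of all). It was above 0 in both for Nfkbia and Nfkbiz (34.6%). On the other Nfkbia probe set, of nearly equal mean, it was below 0 in both, at -0.42 and -0.40. These comparisons share arrays, so their counts are not independent of each other.

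Between genotypes before OSM, 0 of 8 genes had groups without overlap on their best probe sets. Of all probe sets 6.81% were higher and 12.4% lower in STAT3-/- cells without overlap. Nfkb2 was higher in STAT3-/- cells in both numbers (20.9% of all) and Nfkbiz lower in both (33.7%), and the other 6 genes went in opposite directions in the numbers. The dimmer Relb probe set was instead higher in STAT3-/- cells without overlap, by 0.41 and 0.33 within the numbers. The other Nfkbia probe set was higher in both numbers, by 0.03 and 0.46. With OSM, Bcl3, Relb and Nfkbib were lower in STAT3-/- cells without overlap, as 13.8% of all tested probe sets were, and no member was higher without overlap (11.2%). Bcl3, Rela, Relb and Nfkbib were lower in both numbers (27.4%) and Nfkbia was higher in both (29.2%). On their other tested probe sets Relb (0.30 and -0.14) and Nfkbia (-0.39 and 0.06) turned sign between the numbers, and Nfkbiz (0.24 and 0.08) was higher in both. The Relb difference was -0.35 ± 0.35 and the Nfkbib difference -0.50 ± 0.41 (SE, limma adjusted p = 1 each), so of these 3 genes only Bcl3 had a difference well over its standard error.

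The replicate number moved most members more than OSM did. Nfkbia and Nfkbiz were higher in replicate 3 in all 4 groups, as 33.7% of all tested probe sets were, with mean differences of 1.38 and 4.31. Nfkb2, Rela and Nfkbie were lower there in all 4 groups, as 25.6% were, with mean differences of -1.13, -0.93 and -0.65. Bcl3, Relb and Nfkbib had no common direction on their best probe sets, while the dimmer Relb probe set was lower in replicate 3 in all 4 groups (-1.20 to -0.01). The 18S control and the actin 3′ minus 5′ difference, a sign of RNA quality that spanned 0.33 to 0.53 on replicate 2 arrays and 0.72 to 1.11 on replicate 3 arrays, moved with the number too. Their part in these values was not tested.

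The genes whose pattern was most like that of Bcl3 were sought among 5195 genes, by Pearson correlation over the 8 arrays after the mean of the 4 arrays of each number was subtracted. They were Il4ra, the interleukin-4 receptor alpha chain (0.969), B3gat3, a glucuronosyltransferase of proteoglycan synthesis (0.964), Helb, a DNA helicase (0.946), Rap1a, a small GTPase (0.945), and Fas, a death receptor (0.943). Il4ra had STAT3+/+ values of 9.62 and 13.56 untreated (replicates 2 and 3) and 13.92 and 15.34 after OSM, and STAT3-/- values of 9.31 and 11.06 untreated and 8.86 and 12.34 after OSM. Like Bcl3, it was highest in STAT3+/+ cells with OSM within each number. Fas read 8.41 and 10.56, 10.52 and 12.13, 7.54 and 9.38, and 7.47 and 10.36 in the same order. For Nfkbia the closest 5 were Wsb1 (0.969), Msmo1 (0.963), Frg1 and Smg5 (0.942 each) and Pdlim7 (0.934). These genes were picked as the highest of many, the 8 points share groups and numbers, and the values are a description.

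**Figure D3:**
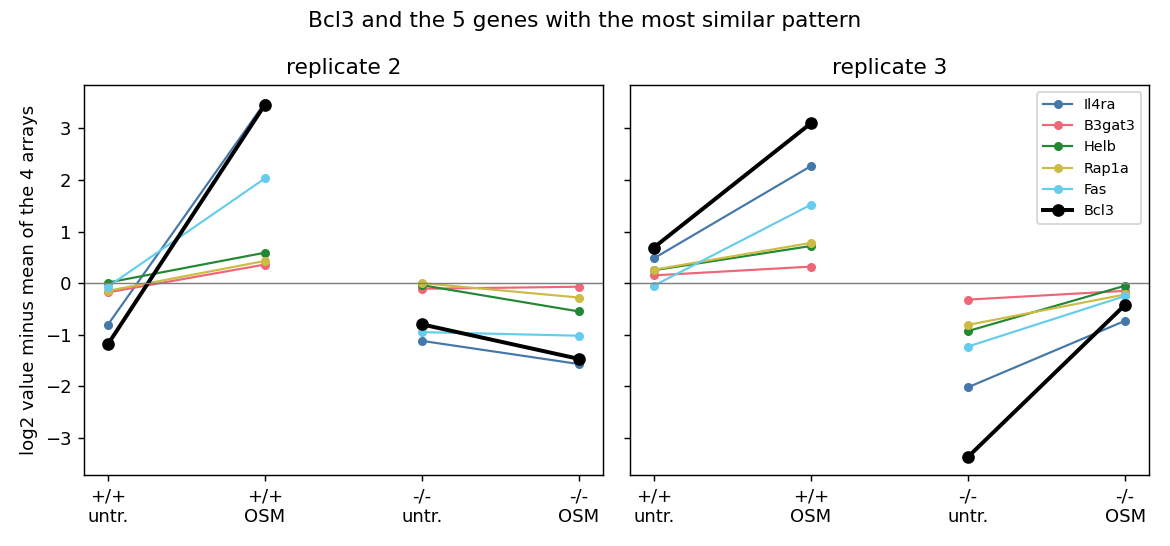
Log2 value minus the mean of the 4 arrays of the same replicate number (vertical axis) in the 4 groups (horizontal axis) for Bcl3 (black) and the 5 genes with the highest correlation to it, with replicate 2 on the left and replicate 3 on the right. In both panels the STAT3+/+ OSM array is the highest point of Bcl3, at 3.46 and 3.10, and the lowest is STAT3-/- OSM at -1.47 in replicate 2 but untreated STAT3-/- at -3.37 in replicate 3.

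Of 40 listed NF-kB target genes 27 were tested. With OSM, 0 of 27 passed in either genotype. In STAT3+/+ cells 21 of 27 had a difference above 0, with a median of 0.67 (0.48 and 0.33 within replicates 2 and 3), beside a median of -0.04 over all probe sets. In STAT3-/- cells 23 of 27 were above 0, with a median of 0.51 (0.60 and 0.41 within the numbers), beside 0.02. Of all tested probe sets 43.8% were above 0 with OSM in STAT3+/+ and 52.2% in STAT3-/- cells. The median of the difference of responses was -0.24, beside 0.06 over all, but its sign turned between the numbers, at -0.43 in replicate 2 and 0.04 in replicate 3. Tnfaip3 and Lcn2 passed the filter only through 1 group where they were high. Without them, over the 25 targets with a mean of at least 5, the OSM median was 0.55 in STAT3+/+ cells (19 above 0) and 0.51 in STAT3-/- cells (21 above 0).

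The pooled OSM difference of single targets was larger in one genotype or in the other, and no difference of responses passed for any of the 27 (limma). Tnfaip3, whose product A20 dampens NF-kB signalling, had STAT3+/+ values of 3.88 and 4.13 untreated and 6.06 and 5.39 after OSM, and STAT3-/- values of 3.49 and 3.88 untreated and 4.10 and 4.35 after OSM. Only the STAT3+/+ OSM arrays were above 5, and the gene was tested only because of them, so its difference of 1.72 is a description of these values. Icam1, an adhesion molecule, differed by 2.17 and 1.85 within the numbers of STAT3+/+ cells, and the 2.17 starts from 4.66, under 5. In STAT3-/- cells Icam1 differed by 0.12 and 0.03. Its difference of responses was -1.93 ± 1.31 (SE, limma adjusted p = 1).
In STAT3-/- cells the smallest p of the list was that of Irf1, a transcription factor of interferon responses, which read 11.41 and 12.78 untreated and 13.48 and 14.82 with OSM, a difference of 2.06 ± 0.71 (SE). In STAT3+/+ cells Irf1 read 10.88 and 12.02 untreated and 11.12 and 11.91 with OSM. The chemokine Ccl7 had differences of 3.08 ± 1.41 in STAT3+/+ and 2.56 ± 1.41 in STAT3-/- cells (SE), above 0 in both numbers of each. The limma adjusted p was 1 for each of these OSM differences of Icam1, Irf1 and Ccl7.

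Between the genotypes with OSM, 1 of the 27 targets passed. The membrane-bound chemokine Cx3cl1 was higher in STAT3-/- cells by 7.01 ± 0.50 (SE, limma adjusted p = 0.0488), reading 14.40 and 14.55 there and 8.14 and 6.78 in STAT3+/+ cells. It was the only probe set of the array called in that comparison. Before OSM it was already higher there by 5.19 ± 0.50 (limma adjusted p = 0.288), and the OSM call was lost under 6 other settings and on leaving out most single arrays. With replicate number as a block Irf1 passed as well (2.64, limma adjusted p = 0.0387). Before OSM 0 of 27 passed, and the median was -0.16, beside -0.06 over all probe sets, with 0.16 in replicate 2 and -0.14 in replicate 3.

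Of 40 listed receptors, adaptors and kinases upstream of NF-kB 24 were tested, and 0 passed in any comparison. Their OSM medians were 0.07 in STAT3+/+ and 0.21 in STAT3-/- cells, with 14 and 16 of 24 above 0. Over all tested probe sets the medians were -0.04 and 0.02, with 43.8% and 52.2% above 0. The tumour necrosis factor receptor Tnfrsf1a read 11.63 and 11.82 in untreated STAT3+/+ cells and 12.91 and 13.22 with OSM, a difference of 1.34 ± 0.32 (SE, limma adjusted p = 1). The STAT3-/- values were 11.87 and 11.24 untreated and 12.10 and 12.45 with OSM, a difference of 0.72 ± 0.32. Ltbr, the lymphotoxin beta receptor of the non-canonical branch, differed by 0.80 ± 0.30 (SE) in STAT3+/+ cells, 0.65 and 0.95 within the numbers. Its response in STAT3-/- minus that in STAT3+/+ cells was -0.75 ± 0.42 (SE, limma adjusted p = 1 each), -0.76 and -0.73 within them. The adaptor Myd88 read 8.14 and 8.88 in untreated STAT3+/+ cells and 10.38 and 10.74 with OSM, a difference of 2.06 ± 0.97 (SE). Its STAT3-/- values were 7.45 and 8.66 untreated and 7.68 and 10.60 with OSM, a difference of 1.09 ± 0.97 (limma adjusted p = 1 each). Within replicate 3 the difference was about as large in STAT3-/- (1.95) as in STAT3+/+ cells (1.86), and within replicate 2 it was 0.24 against 2.25. The adaptor Bcl10 was higher with OSM in both numbers of both genotypes, by 0.68 ± 0.37 in STAT3+/+ and 1.04 ± 0.37 in STAT3-/- cells (SE, limma adjusted p = 1 each).

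Of 30 listed coregulators of NF-kB and partners of Bcl3 16 were tested, Stat3 itself among them, and 0 passed. Their OSM medians were -0.08 and -0.03, with 6 and 8 of 16 above 0, near the values over all probe sets. With the block Stat3 passed between the genotypes with OSM (limma adjusted p = 0.0476). Stat3 is the gene that defines the genotypes, so its pass is a label check and no result about the list.

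**Figure D4:**
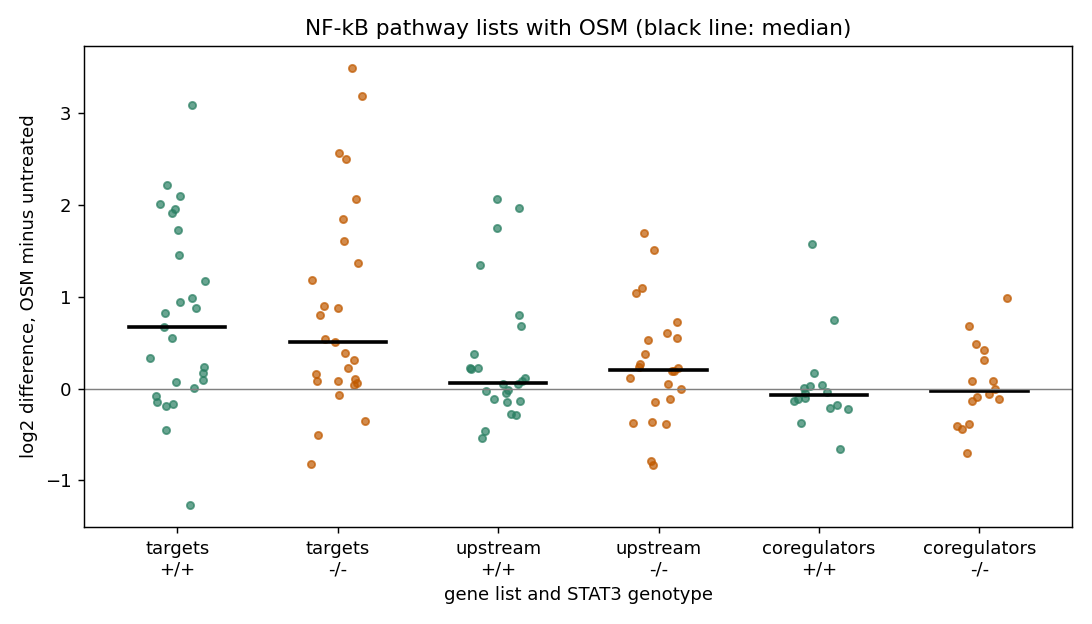
Pooled log2 difference between OSM and untreated cells (vertical axis) for each tested gene of the 3 pathway lists in STAT3+/+ (green) and STAT3-/- (orange) cells, with the median as a black line. The medians are 0.67 and 0.51 for the target genes, 0.07 and 0.21 for the upstream genes and -0.08 and -0.03 for the coregulators.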

How the data were processed

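Biotin-labelled cRNA from total RNA was hybridised to 8 arrays, per the labels' protocols. The authors deposited 1 log2 value per array for each probe set. GCRMA and affy are named, with no version, per the submitters' processing notes. The sources do not say if 1 normalization run covered every array. For dim probe sets GCRMA can give very low values, so a log2 difference that starts from one can be too large.

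The table has 12488 probe sets, of which 66 are controls and were left out. By the platform's annotation 10833 of the rest have 1 symbol, 396 several and 1193 none. Of the single-symbol probe sets 10817 matched a RefSeq gene of GRCm38.p6, used for names, gene positions and promoter windows. The array number, 8 in all, limits the precision. The array medians were 5.27 to 5.66.

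The test was limma 3.58.1 under R 4.3.3 (lmFit, eBayes with an intensity trend, two-sided) on 4 group means, with 4 residual degrees of freedom. Benjamini-Hochberg adjustment ran over 6756 probe sets with log2 of at least 5 on at least 2 arrays, and 0.05 was the threshold. The fit was tested on simulated data. Errors are limma standard errors of the fit without the block unless the block is named, so they include the shift between replicate numbers. A gene's best probe set is the tested one with the highest mean. Named genes are all members, Stat3, the 5 genes most like Bcl3 and like Nfkbia, and at most 6 genes per pathway list with the smallest p. The members and lists were chosen with earlier results of these data known. Other settings were no filter, a filter at 7, eBayes without trend or robust, only the groups compared, quantile normalization, median centring, values under 5 set to 5, the replicate block, 1 probe set per gene, other probe sets and leaving out each array. Leaving out each array with the block, and list medians over genes with a mean of at least 5, were added after seeing the data.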

Additional observations from a re-analysis of the deposited data

Results flagged for a closer look

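Nfkb2 and Nfkbib drew attention because OSM moved every pair of STAT3+/+ arrays one way and every pair of STAT3-/- arrays the other. For Nfkb2 the OSM response in STAT3-/- minus that in STAT3+/+ cells was -0.70 ± 1.03 (SE, limma adjusted p = 1). One of its STAT3-/- pairs differed by only -0.00011, so its direction there is not measurable. For Nfkbib the difference of responses was -0.37 ± 0.58 (SE, limma adjusted p = 1), and its pairs differed by 0.09 and 0.34 in STAT3+/+ and -0.23 and -0.08 in STAT3-/- cells. Both differences are smaller than these standard errors, which come from the fit without the block. With the block the standard error for Nfkb2 was 0.42, smaller than its difference (limma adjusted p = 0.913). For Nfkbib it was 0.51, still larger than its difference (limma adjusted p = 0.939).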

How the results depend on the processing

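The array number and the distance between replicates limit what can be read here. Across the 8 genes, 5 comparisons and all settings, no member reached an adjusted limma p under 0.05. Of 1132 alternative values 102 had the opposite sign, in 34 of the 40 member results. The Bcl3 difference kept its sign under every setting run in 2 of the 5 comparisons, OSM in STAT3+/+ cells and the genotypes with OSM. The Nfkbiz difference kept its sign under every setting run for OSM in STAT3-/- cells only.

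Counts over all probe sets moved more. With replicate number as a block, limma called 1 probe set for OSM in STAT3+/+ (0 without), 2 for OSM in STAT3-/- (0 without) and 7 between genotypes with OSM (1 without). With values under 5 set to 5, 1 was called for OSM in STAT3-/-. Between genotypes with OSM 0 were called with no trend, robust eBayes, only the groups compared, quantile normalization, median centring or values under 5 set to 5. The cause was not tested. Leaving out 1 array, with or without the block, gave 0 to 1 calls before OSM, 0 to 1 for OSM in STAT3-/- and 0 to 2 between genotypes with OSM. The replicate 3 minus replicate 2 differences correlated across probe sets at 0.911 between the STAT3+/+ groups and 0.794 between the STAT3-/- groups. Across genotypes they correlated at 0.589 to 0.664. Part of the shift between the numbers was thus common to all groups. The fit without the block counts this shift as spread. Its median standard error for OSM in STAT3+/+ was 0.49, and with the block it was 0.28. The labels do not say whether arrays of one number were handled together. The block changed no member's call.

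Signs turned with other probe sets for Rela (-0.10 for OSM in STAT3+/+, 0.14 in STAT3-/-, 0.25 for the difference of responses, 0.15 between genotypes with OSM), Relb (0.08 between genotypes with OSM), Nfkbia (0.25 before OSM, -0.41 for the difference of responses, -0.16 with OSM) and Nfkbiz (-0.12 for OSM in STAT3+/+, 0.16 between genotypes with OSM). The Rela one is under 5 on all arrays. Quantile normalization turned Relb for OSM in STAT3-/- to -0.04 and median centring turned Nfkbie between genotypes with OSM to -0.08. Within 1 replicate number the sign was opposite to the pooled one before OSM for Bcl3 (0.40), Rela (0.07), Relb (-0.05), Nfkbia (0.12), Nfkbib (0.38) and Nfkbie (-0.08), for OSM in STAT3+/+ for Nfkbia (-0.23) and Nfkbie (-0.07), and for OSM in STAT3-/- for Bcl3 (-0.67), Rela (0.18) and Nfkbie (0.32). It was also opposite for the difference of responses of Bcl3 (0.53) and Nfkbie (0.40), and between the genotypes with OSM for Nfkb2 (0.04), Nfkbie (-0.27) and Nfkbiz (0.61). Leaving out 1 array, with or without the block, turned further signs, and the lowest to highest values were as follows. For the genotypes before OSM they were Nfkb2 -0.45 to 0.80, Rela -1.02 to 0.40, Relb -0.15 to 0.41, Nfkbia -1.43 to 0.56, Nfkbib -0.53 to 0.28, Nfkbie -0.32 to 0.84 and Nfkbiz -5.61 to 0.52. For OSM in STAT3+/+ they were Nfkb2 -0.38 to 1.31, Rela -0.26 to 1.17, Nfkbia -0.67 to 0.74, Nfkbib -0.19 to 0.62, Nfkbie -0.31 to 0.46 and Nfkbiz -0.95 to 4.63. For OSM in STAT3-/- they were Bcl3 -0.58 to 2.85, Nfkb2 -0.75 to 0.28, Rela -0.43 to 0.42, Relb -0.0049 to 0.15, Nfkbia -0.09 to 1.91, Nfkbib -0.53 to 0.22 and Nfkbie -0.74 to 0.42. For the difference of responses they were Nfkb2 -1.54 to 0.14, Rela -1.17 to 0.25, Nfkbia -0.13 to 1.87, Nfkbib -0.77 to 0.04, Nfkbie -0.82 to 0.34 and Nfkbiz -0.84 to 5.28. For the genotypes with OSM they were Nfkb2 -1.37 to 0.32, Nfkbia -0.27 to 1.15, Nfkbie -0.36 to 0.41 and Nfkbiz -2.18 to 1.53.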
